A study of Mus musculus with 4 samples.

Results

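The genes followed here mark the Lgr5-expressing stem cell of the mouse small intestine, and are Lgr5, Ascl2, Tnfrsf19, Smoc2, Igfbp4, Prom1, Aqp4, Msi1 and Cdca7. They are listed by name as known stem cell markers, with no threshold on their values here. All 9 were measured, by 21 probe sets, among 12393 genes and 20380 probe sets that the platform annotation ties to a single gene symbol. A probe set is a group of short array probes against the same transcript, and its value is a normalized intensity.

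RNA came from proximal intestinal epithelium of C57BL/6 mice aged 4 to 6 weeks, on 4 Affymetrix arrays, 1 per sample. The stem group (2 arrays) held Lgr5(hi) cells sorted by flow cytometry from animals labelled wild type. The enterocyte group (2 arrays) held differentiated villus cells released with EDTA from animals labelled Atoh1 knockout, a conditional deletion in the intestinal epithelium. Tamoxifen at 1 mg per day for 5 days, followed by a wait of 5 days, is listed for all 4 samples, stem samples included. The Cre driver, the reporter used for the sort and the animals behind each replicate are not given in the sources used here. Replicates are labelled biological, and p-values measure the spread between these arrays only. The groups differ in cell type, in genotype and in how cells were isolated, and these cannot be told apart. In bulk RNA, fewer cells of a type and less RNA per cell cannot be told apart either.

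The stem cells that carry Lgr5 sit between Paneth cells at the base of the crypt and divide throughout life. Wnt ligands and R-spondins from the crypt base maintain them, and Lgr5 is a receptor for R-spondins that itself depends on Wnt signalling. Daughter cells move up the crypt, divide further as transit-amplifying cells and become absorptive enterocytes or secretory cells. Secretory cells need Atoh1, so its loss leaves a villus made largely of enterocytes.

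The median intensity of an array was 102.4 to 110.6, and replicates correlated across genes at r = 0.996 (stem) and 0.992 (enterocyte). Atoh1 read 173 and 209 in stem cells against 33.4 and 38.7 in enterocytes (log2 difference -2.40 ± 0.15 SE, adjusted p = 0.00423 by limma), at least 2.18-fold lower. Which stretch of Atoh1 was deleted is not given, so whether this probe set lies in it is unknown. Of 64 control probe sets, 13 were higher and 18 lower in enterocytes at an adjusted p under 0.05 by limma. Of the probe sets with a single symbol, 17.8% were called higher and 19.6% lower. What moved the controls, and its part in the results below, was not tested.

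All 9 stem cell genes were lower in enterocytes, by 3.28-fold (Igfbp4) to 24.9-fold (Lgr5), with 0 higher (limma, adjusted p between 0.00261 and 0.00994, n = 2 arrays per group). Each gene is read here by its probe set with the highest mean. In the same test 22.4% of all genes were called lower. The median log2 difference, enterocyte minus stem, was -2.85 over the 9 genes and -0.003 over all genes. By the measured difference, a fall of at least 4-fold passed the threshold for 7 of the 9, all but Cdca7 and Igfbp4. The same was found for 3.66% of all genes, dim readings included. Msi1 is among the 7, but its enterocyte values lay below the background level given below. Its fall is therefore shown only as at least 3.47-fold. The lowest stem array lay above the highest enterocyte array in all 9 genes, which was so for 34.8% of all genes. Lgr5 was the gene of the sort, so its difference is set by the design and is given as a description. Without it 8 of 8 genes were lower, at a median of -2.68.

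**Figure D1:**
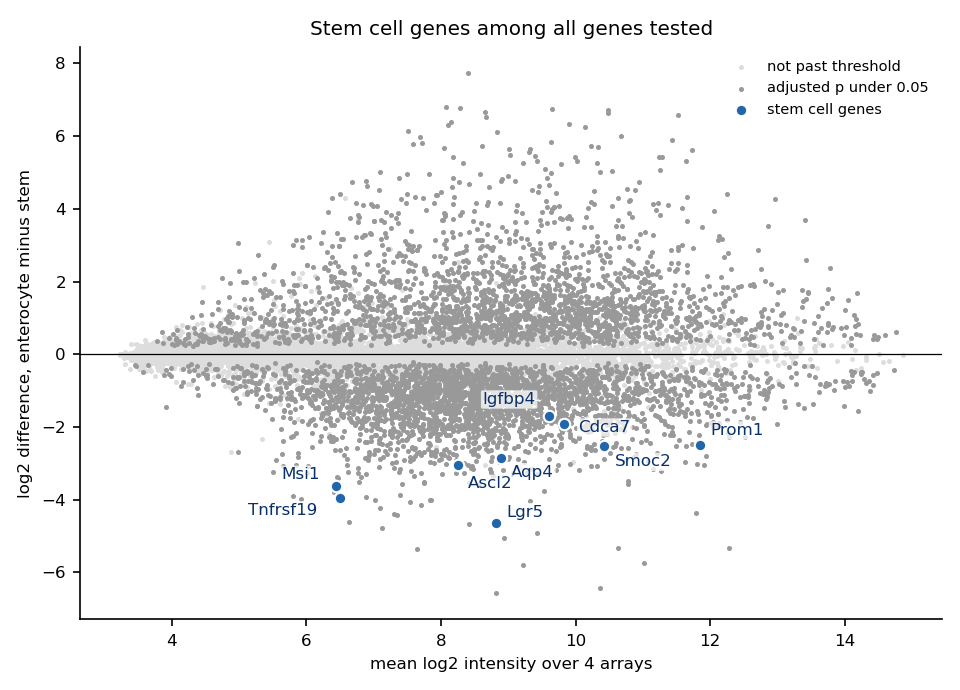
Each point is a gene, with its mean log2 intensity over the 4 arrays on the x axis and its log2 difference, enterocyte minus stem, on the y axis. Dark grey points passed an adjusted p of 0.05 and the 9 stem cell genes are in blue. The stem cell genes lie between -1.71 (Igfbp4) and -4.64 (Lgr5), and Msi1 and Tnfrsf19 are the dimmest of them.

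These calls rest on few arrays. Leaving out Lgr5(hi) replicate 1 raised the adjusted p of the 9 genes to between 0.0524 and 0.116, and leaving out Lgr5(hi) replicate 2 to between 0.0557 and 0.106, so 0 of 9 passed. The calls of all other genes were lost in these fits as well, so the loss is not particular to the 9. The median log2 difference of the 9 was -2.91 without Lgr5(hi) replicate 1 and -2.797 without Lgr5(hi) replicate 2. Without enterocyte replicate 1, 7 of 9 passed, against 8.54% of all genes called lower, Igfbp4 and Smoc2 being lost. Without enterocyte replicate 2, 4 of 9 passed, against 6.88%, and Lgr5, Cdca7, Prom1, Igfbp4 and Smoc2 were lost. In each of these fits the lone array is assumed to vary like those of the other group. All 9 differences stayed below 0.

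The receptors come first. Lgr5, the R-spondin receptor, has a single probe set (1450988_at). Its intensity was 2572 and 1989.5 in stem cells against 121 and 68.1 in enterocytes. The stem values lay far above the enterocyte values, the smallest gap between the groups being 16.5-fold, against 1.29-fold between the stem replicates and 1.77-fold between the enterocyte replicates. The log2 difference was -4.64 ± 0.36 SE (95% interval -5.74 to -3.54, adjusted p = 0.00584 by limma). By size of fall Lgr5 ranked 12 among 12393 genes.

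Tnfrsf19, also called Troy, is a receptor of the tumour necrosis factor receptor family that Wnt signalling induces in these stem cells. Its brightest probe set (1448147_at) gave 370.3 and 340.3 in stem cells against 21.3 and 24.5 in enterocytes. Both enterocyte values lay below the background level of 87.5 intensity units, set from genes of other organs, so the fold is a bound. It was at least 4.06-fold lower (measured log2 difference -3.96 ± 0.11 SE, adjusted p = 0.00261 by limma). With a background level of 57.3, which leaves out 3 of the organ genes that themselves passed the test, the bound was 6.2-fold. The second probe set (1425212_a_at) read 119 and 144 against 52.0 and 48.4 and also passed, at -1.39 ± 0.13 SE. The third (1415921_a_at) stayed between 21.7 and 24.2 on all arrays, below background throughout, and did not pass (-0.09 ± 0.07 SE, adjusted p = 0.386 over all probe sets by limma).

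RefSeq sequences upstream of a start site were at hand for 5 of the 9 genes, in 7 windows of 250 bases. They are shown for genes that were lower together, with matches in capitals to CTTTGAT (the core bound by TCF/LEF, the transcription factors of Wnt signalling), to the E-boxes CAGCTG and CACGTG (bound by basic helix-loop-helix factors) and to the E2F forms TTTCCCGC, TTTGGCGC and TTTCGCGC (cell cycle). Both strands were searched, and no match overlapped another. A Tnfrsf19 window (GRCm38.p6, chr14:61037988-61038237, minus strand), which precedes the inner of 2 listed starts 8868 bases apart, held 3 matches. CTTTGAT lay on its opposite strand from -202, CACGTG began at -133 and CAGCTG at -10, counted from the start site.
Tnfrsf19: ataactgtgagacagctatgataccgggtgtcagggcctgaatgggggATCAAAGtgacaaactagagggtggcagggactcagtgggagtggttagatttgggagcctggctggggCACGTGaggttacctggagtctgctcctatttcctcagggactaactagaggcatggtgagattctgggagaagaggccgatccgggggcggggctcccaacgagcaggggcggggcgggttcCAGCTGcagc
Of 32851 such windows of all genes, 3.21% held CTTTGAT, 6.02% CACGTG and 13% CAGCTG. The window before the outer Tnfrsf19 start held 0 matches. A match is a run of letters, not a shown binding site.

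Ascl2 is a basic helix-loop-helix transcription factor, a Wnt target that stem cells need to keep their identity. Its brightest probe set (1460514_s_at) read 892 and 862 in stem cells against 133 and 82.8 in enterocytes. The stem replicates were 1.04-fold apart and the enterocyte replicates 1.61-fold, the reading of 82.8 lying below background. The level in enterocytes was 8.34-fold lower (log2 difference -3.06 ± 0.28 SE, adjusted p = 0.00724 by limma). The other 2 probe sets pointed the same way and passed. At 1432018_at the values were 676 and 649.8 against 60.9 and 42.6, at least 7.58-fold lower. At 1422396_s_at they were 171 and 176 against 34.9 and 34.3, at least 1.98-fold lower, a bound that was 3.03-fold with the lower background level. All 3 Ascl2 probe sets thus kept the groups apart. Its upstream window (GRCm38.p6, chr7:142969265-142969514, minus strand), shown because Ascl2 is the transcription factor among the 9, held 0 matches to the 6 motifs, so it is in lower case throughout.
Ascl2: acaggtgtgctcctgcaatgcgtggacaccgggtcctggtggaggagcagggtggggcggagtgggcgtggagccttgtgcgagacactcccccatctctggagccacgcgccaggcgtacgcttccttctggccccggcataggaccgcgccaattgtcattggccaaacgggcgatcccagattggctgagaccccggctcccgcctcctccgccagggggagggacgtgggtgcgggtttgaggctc

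Smoc2 encodes a secreted calcium-binding protein of the extracellular matrix. Its brighter probe set (1415935_at) gave 3692 and 2928 in stem cells against 700.4 and 473 in enterocytes. Enterocytes were 5.71-fold lower (log2 difference -2.51 ± 0.26 SE, adjusted p = 0.00929 by limma). The second probe set (1431362_a_at) read 1513 and 2121 against 221 and 186, an 8.82-fold fall (-3.14 ± 0.22 SE). The order of the stem replicates was opposite in these 2 probe sets, and in neither did the groups overlap. Both enterocyte arrays stayed above background at both probe sets.

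Igfbp4 encodes a secreted protein that binds insulin-like growth factors. It had 6 probe sets, the most of the 9 genes, and they disagreed in size. The probe set with the highest mean (1437406_x_at) gave 1649.65 and 1212 in stem cells against 447 and 416 in enterocytes, a 3.28-fold fall (log2 difference -1.71 ± 0.19 SE, adjusted p = 0.00994 by limma). This was the smallest difference among the 9 genes. A second probe set (1437405_a_at) read 1816 and 1537 against 209 and 143, which is 9.66-fold lower (-3.27 ± 0.24 SE). In each of these 2 sets the groups lay apart. At 1423756_s_at the values were 1096 and 805 against 84.3 and 62.0, at least 10.7-fold lower. At 1423757_x_at they were 486 and 339.5 against 138 and 105, a 3.38-fold fall. The suffix x marks probe sets whose probes can also bind other transcripts. With every set ending in s, x or a left out, Igfbp4 had no value. Of the dimmer sets, 1421992_a_at was at least 1.76-fold lower (167 and 142 against 68.3 and 39.5), and 1421991_a_at lay between 91.5 and 93.0 on all arrays, with overlapping groups (0.01 ± 0.05 SE, adjusted p = 0.882 over all probe sets by limma).

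Prom1 encodes prominin-1 (CD133), a membrane protein of cell protrusions that in the small intestine also marks dividing cells above the stem cells. Its only probe set (1419700_a_at) read 9399 and 8224 in stem cells against 1699 and 1409 in enterocytes. Enterocytes were 5.68-fold lower (log2 difference -2.51 ± 0.14 SE, adjusted p = 0.00384 by limma), and the groups lay at least 4.84-fold apart. The signal in enterocytes stayed far above the background level.

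Aqp4 encodes a water channel. Its brighter probe set (1434449_at) gave 1225 and 1325 in stem cells against 142 and 219 in enterocytes, a 7.23-fold fall (log2 difference -2.85 ± 0.25 SE, adjusted p = 0.00711 by limma). In both groups replicate 2 was the brighter array, the reverse of the order seen for most of the 9 genes. The second probe set (1425382_a_at) read 192 and 249.7 against 67.5 and 97.3 and was at least 2.37-fold lower (-1.43 ± 0.26 SE, adjusted p = 0.0327 over all probe sets by limma).

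Msi1 encodes an RNA-binding protein that controls translation in stem and progenitor cells. At 1452287_at its values were 316 and 292 in stem cells against 28.6 and 21.5 in enterocytes. Both enterocyte values were below background, and the fall was at least 3.47-fold, or at least 5.30-fold with the lower background level (measured log2 difference -3.61 ± 0.18 SE, adjusted p = 0.00341 by limma). The other probe set (1421409_at) read 56.2 and 51.8 against 61.5 and 63.2. It was below background on all arrays, higher in enterocytes by 0.21 ± 0.07 SE on the log2 scale, and did not pass (adjusted p = 0.112 over all probe sets by limma).

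Cdca7 encodes a zinc finger protein of the nucleus that is induced in dividing cells by Myc and E2F factors. Its single probe set (1428069_at) read 1858 and 1671 in stem cells against 519 and 422 in enterocytes. It was 3.76-fold lower (log2 difference -1.91 ± 0.14 SE, adjusted p = 0.00541 by limma), with 1.11-fold between the stem and 1.23-fold between the enterocyte replicates. Its upstream window (GRCm38.p6, chr2:72475969-72476218, plus strand) is shown because it held the E2F form TTTCCCGC, on the opposite strand from -71, which 0.895% of all windows held.
Cdca7: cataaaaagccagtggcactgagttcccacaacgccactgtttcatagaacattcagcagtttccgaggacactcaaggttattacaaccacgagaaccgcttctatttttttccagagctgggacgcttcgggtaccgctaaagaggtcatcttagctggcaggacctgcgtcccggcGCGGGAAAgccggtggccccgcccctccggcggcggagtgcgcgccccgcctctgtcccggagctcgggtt
The 2 Prom1 windows and the Igfbp4 window held 0 matches to the 6 motifs. Of the proliferation markers, such as Mki67 and the Mcm helicase subunits, 16 of 17 measured were lower, 0 were higher, at a median of -1.77. Of all genes 22.4% were called lower. Mki67 itself was 11.9-fold lower (-3.58 ± 0.29 SE).

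Taken by probe set, 18 of the 21 were lower at the threshold and 0 higher, where 19.6% of all probe sets were called lower and 37.3% in either direction. By reading, in 19 of the 21 both enterocyte arrays lay below both stem arrays, as in 33% of all probe sets. In 1 (Msi1, 1421409_at) they lay above, and in 1 (Igfbp4, 1421991_a_at) the groups overlapped. Of the 3 probe sets that did not pass, those of Tnfrsf19 and Msi1 were below background on every array and that of Igfbp4 was barely above it. When any of the 4 arrays was left out, the calls of the 21 probe sets were lost, as were those of all other probe sets.

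**Figure D2:**
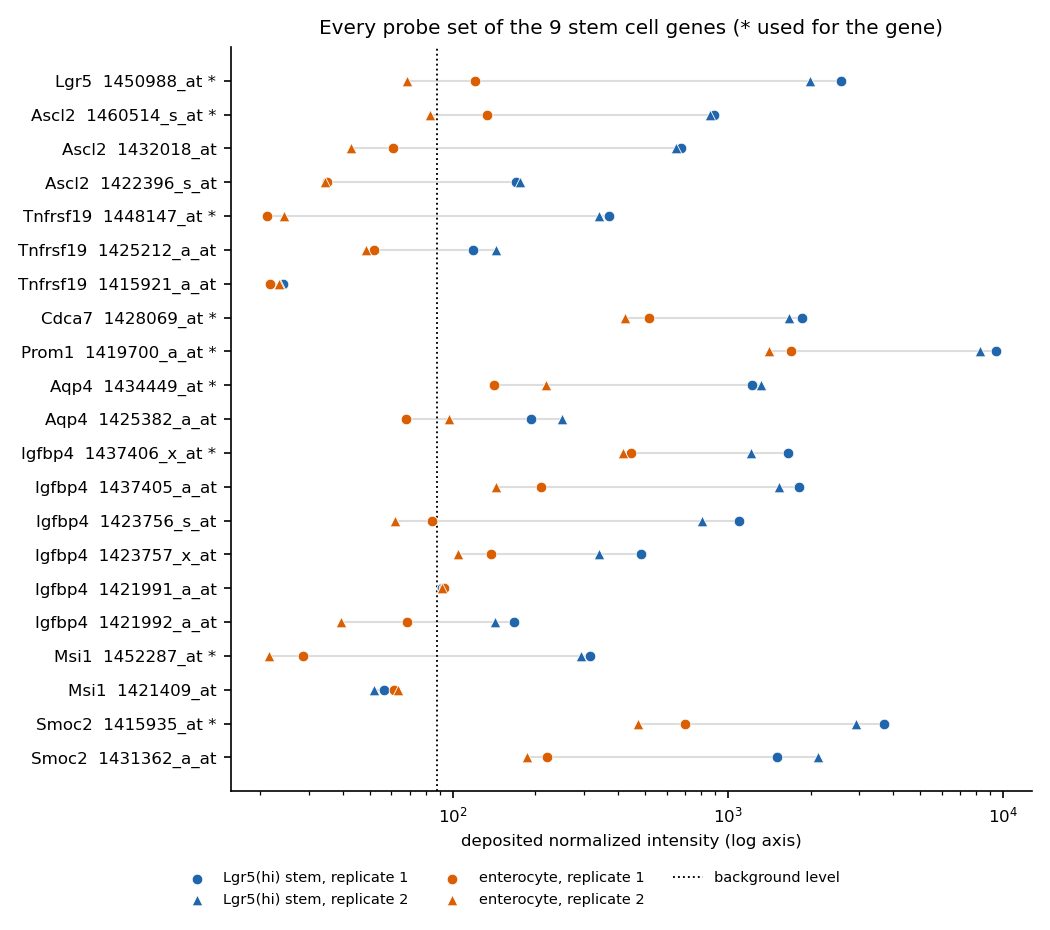
Each row is a probe set of the 9 genes, with the deposited intensity of each of the 4 arrays on a log axis (blue stem, orange enterocyte, circles replicate 1, triangles replicate 2) and the background level of 87.5 as a dotted line. Asterisks mark the probe set used for the gene. Stem and enterocyte points are apart in 20 rows, in 19 with the enterocyte points to the left.

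The replicates of a group were not alike for these genes. In the stem group 8 of the 9 genes, all but Aqp4, were higher in replicate 1 than in replicate 2, against 61.8% of all genes and 57.6% of the genes called lower. In the enterocyte group Msi1 and Tnfrsf19 were below background on both arrays and have no order, and 6 of the other 7, all but Aqp4, were higher in replicate 1, against 55.4% and 64.8%. These counts leave out genes below background on both arrays of the group; with those kept in, the shares of all genes were 48.9% in the stem and 50% in the enterocyte group. Proliferation markers were higher in replicate 1 in 14 of 16 (stem) and 12 of 16 (enterocyte), and Paneth cell markers in 0 of 6 and 0 of 5. Lyz1, the lysozyme of Paneth cells, was 27637 and 35698 in stem replicates 1 and 2 and 277 and 2204 in enterocyte replicates 1 and 2. These are descriptions of 4 arrays, and no test was made.

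Markers of secretory cells moved with the stem cell genes. For the counts that follow, 22.4% of all genes were called lower and 18.2% higher. The summed intensity of the 7 measured Paneth cell markers was 36210 to 50310 in stem cells against 750.2 to 6487 in enterocytes, and 3 of 7 were lower at the threshold. For 8 goblet cell markers the sums were 35950 to 42130 against 675 to 1226 (7 of 8 lower), and for 12 enteroendocrine markers 9204 to 11410 against 865.6 to 954.5 (7 of 12 lower). The summed intensity of the 9 stem cell genes was 18840 to 21970 against 3136 to 3811. Secretory cells also need Atoh1, so the genotype moves with these markers. Their part in the fall of the stem cell genes was not tested. Enterocyte markers were higher in enterocytes in 14 of 14 cases, with sums of 219600 to 229100 against 21550 to 23330 in the stem arrays. Lymphocyte markers rose in 10 of 11 cases (8744 to 11810 against 653.9 to 910.2) and tuft cell markers in 5 of 6 (2024 to 3071 against 469.7 to 715.7). Of the tuft cell calls 3 were left with the replicate number as a block. Raising values left 1 tuft cell call at the lower background level and 0 at the higher. Raising values to the higher level also left 1 of 7 Paneth, 4 of 8 goblet and 4 of 12 enteroendocrine markers lower, against 14.8% of all genes. It left 7 of 11 lymphocyte and 13 of 14 enterocyte markers higher, against 11.9% of all genes.

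Several of the 9 genes are also known in connective tissue or glia, among them Smoc2, Igfbp4 and Aqp4. Of 13 stroma markers 10 were below background on all arrays. The summed intensity of the 13 was 549 to 664.3 in stem cells against 563.8 to 590.5 in enterocytes. Only 1, Vim, passed the test, as lower (147 and 218 against 36.7 and 37.8, log2 difference -2.26 ± 0.23 SE). It was at least 2.04-fold lower, and 0 of the 13 passed with values raised to background. The collagen genes Col1a1, Col1a2, Col3a1 and Col6a1 stayed between 18.1 and 46.4. All 7 endothelial markers and 6 of 7 measured markers of enteric glia and neurons were below background on all arrays. The glia or neuron marker above background did not pass, at a log2 difference of 0.35. The glial genes S100b and Gfap lay between 36.8 and 42.4. A part of stroma or glia in the fall of the stem cell genes was not tested.

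**Figure D3:**
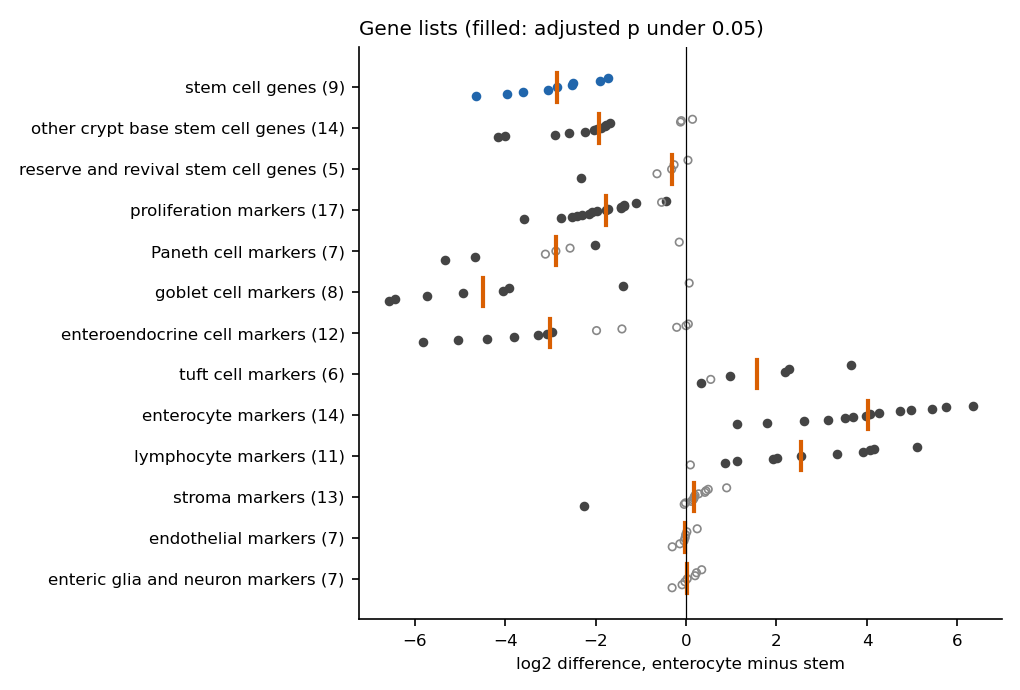
Each point is a gene of the list named at the left (number measured in brackets), placed by its log2 difference, enterocyte minus stem; filled points passed an adjusted p of 0.05, open points did not, and the orange bar is the median. The 9 stem cell genes (blue) have a median of -2.85, markers of goblet cells lie lower at -4.49, and stroma, endothelial and glial markers lie around 0.

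A wider list held other genes known from crypt base stem cells. Of 21 such genes 14 were measured, and 11 were lower, 0 higher and 3 not past the test, at a median of -1.92, where 22.4% of all genes were called lower. With values raised to background 8 of the 14 passed, Kcnq1, Ptpro and Rnf43 being lost, against 14.8% of all genes. The urea transporter gene Slc14a1 read 815 and 939.9 against 50.4 and 47.8 and was at least 10.0-fold lower. Fstl1, a secreted glycoprotein, was at least 5.95-fold lower. Axin2, a Wnt target that restrains the pathway, was 7.39-fold lower (-2.89 ± 0.08 SE), and Ephb3, an Eph receptor that positions crypt cells, 6.04-fold (-2.60 ± 0.18 SE). Sp5, Cdk6 and Mecom did not pass, at -0.12, -0.11 and 0.14, and Cdk6 and Mecom were below background on all arrays. Without either stem array 0 of the 14 passed, and without either enterocyte array 5 did.

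Of 7 genes tied to reserve or injury-activated stem cells 5 were measured. Of these 1 was lower, 0 higher and 4 not past the test, at a median of -0.32, where 22.4% of all genes were called lower. Lrig1, an inhibitor of ErbB receptors found in stem and early progenitor cells, was 4.97-fold lower (-2.31 ± 0.13 SE, adjusted p = 0.0038 by limma), though its dimmest probe set gave -0.04. Hopx, a homeodomain protein, read 3627 and 3294 against 3308 and 3832 (0.04 ± 0.11 SE), and Bmi1, a Polycomb protein, 432 and 327 against 238 and 411 (-0.26 ± 0.35 SE). In both genes the groups overlapped at these probe sets. The dimmer probe set of Hopx was at -0.80 and passed as lower (adjusted p = 0.0243 by limma). Clu, the secreted chaperone clusterin, was -0.64 ± 0.18 SE and Tert, the catalytic subunit of telomerase, -0.32 ± 0.12 SE, and neither passed. Tert, whose value is the median of the list, was below background on all arrays. With genes below background left out, 2 of 4 were lower, at a median of -0.45, against 37.4% of all genes. Clu was called lower in that fit (adjusted p = 0.034 by limma). It was also called lower with the mean (-0.82) or the median (-0.74) over its probe sets. When arrays were centred on the median of reference genes all 5 were called lower, as were 77.2% of all genes. With centring on their mean 3 of 5 were, against 30% of all genes.

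Relatives from the same gene families did not follow the 9 as a group. Of 20 measured relatives 2 were lower, 4 higher and 14 not past the test, at a median of 0.02. Of all genes 40.6% passed in either direction. Among the 20, 11 were below background on all arrays, so no fall could be read for them. With genes below background left out, 2 of 9 relatives were lower, 3 higher and 4 not past, at a median of -0.07. In that fit 37.4% of all genes were lower and 28.8% higher. Cdca7l, the paralogue of Cdca7, fell 4.02-fold (643 and 592 against 170 and 138). The water channel gene Aqp1 fell 4.48-fold (3591 and 2916 against 848 and 615), next to the 7.23-fold fall of Aqp4. Other water channel genes went the opposite way. Aqp7, a channel for glycerol as well as water, was at least 6.01-fold higher (18.1 and 21.5 against 554 and 498). Aqp3 was at least 3.68-fold higher (61.04 and 73.3 against 242 and 430), a call lost when values were raised to either background level. Aqp8 passed with a log2 difference of 1.19 but lay below background on all arrays. Aqp5 and Aqp9 did not pass and were below background.

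Tnfrsf21, a death receptor of the same receptor superfamily as Tnfrsf19, was at least 14.99-fold higher in enterocytes (67.6 and 62.8 against 1384 and 1243). Msi2, the other Musashi gene, read 131 and 170 against 135 and 139.5 (-0.12 ± 0.16 SE) and overlapped between the groups, unlike Msi1 at its brighter probe set. Smoc1 was at 87.5 in both stem samples and at 72.9 and 82.9 in the enterocyte samples and did not pass. Igfbp1, Igfbp2, Igfbp3, Igfbp5, Igfbp6 and Igfbp7 did not pass, with differences between -0.20 and 0.21. Of these Igfbp1, Igfbp2, Igfbp3 and Igfbp6 were below background on all arrays. Lgr6, Prom2, Ascl3 and Ngfr did not pass and were below background on all arrays. Lgr4, Aqp11 and Eda2r were not analysed here. Differences between a stem cell gene and its relative were not tested. Under centring on reference genes, 15 of the 20 relatives were called lower and 3 higher, against 77.2% and 9.47% of all genes.

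**Figure D4:**
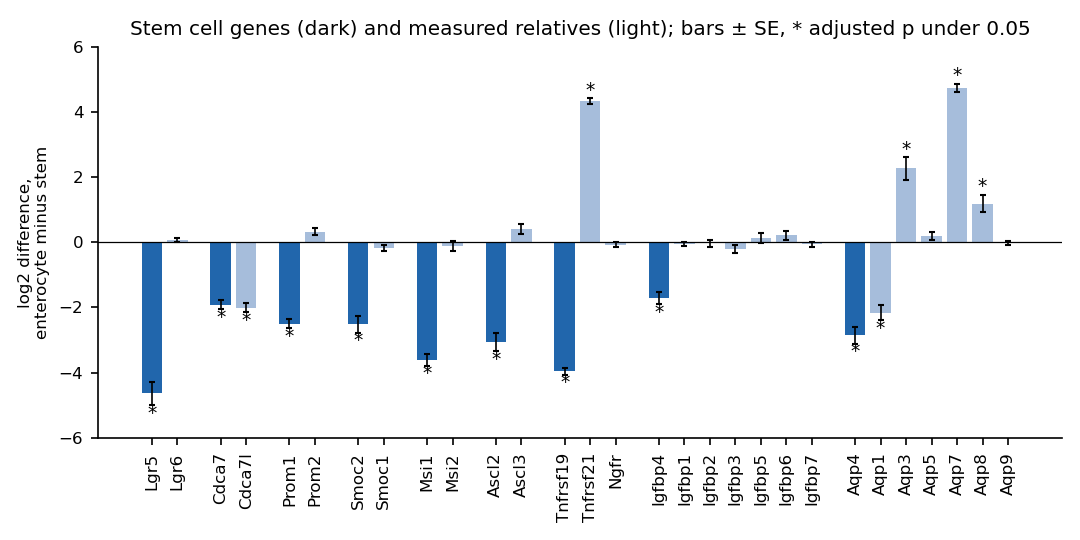
Bars give the log2 difference, enterocyte minus stem, of each stem cell gene (dark) and its measured relatives (light), with limma's SE, and asterisks mark an adjusted p under 0.05. All 9 dark bars point down, while light bars past the threshold point down for Cdca7l and Aqp1 and up for Tnfrsf21, Aqp3, Aqp7 and Aqp8.

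The genes whose profile lay nearest to that of Lgr5 were sought by the Euclidean distance over the 4 arrays between log2 values centred on each gene's mean. The 5 nearest were Neurog3 (distance 0.42), Egr2 (0.49), Fcgbp (0.57), Cyp2e1 (0.61) and Fstl1 (0.64). Neurog3, the factor of the endocrine lineage, read 742 and 717 in stem cells against 40.1 and 29.5 in enterocytes. Fcgbp, a protein of goblet cell mucus, read 3945 and 3651 against 133 and 118. The enterocyte values of Neurog3, Egr2, Cyp2e1 and Fstl1 were below background, so their distances and their order are not defined beyond these readings. The same holds for Tnfrsf19 and Msi1, the nearest of the 9 by reading. Lgr5 itself was below background in enterocyte replicate 2 (68.1), a reading that enters every distance. Of the 9, Igfbp4 lay farthest from Lgr5 at the probe set used for the gene, at 2.97. With 4 arrays in 2 groups, this distance mainly reflects the size of the difference between groups.

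How the arrays are scaled shifts every gene. At the threshold 2779 genes were lower and 2257 higher as deposited, 55.2% lower among the calls. Centring each array on the median of 11 reference genes gave 9567 lower and 1173 higher, 89.1% lower, and moved the median of all genes by -0.78. Of these reference genes 2 were themselves lower and 4 higher. The 9 stem cell genes then had a median of -3.63, a shift that such centring gives every gene alike. All 9 were lower under quantile normalization as well, at a median of -2.81.

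**Figure D5:**
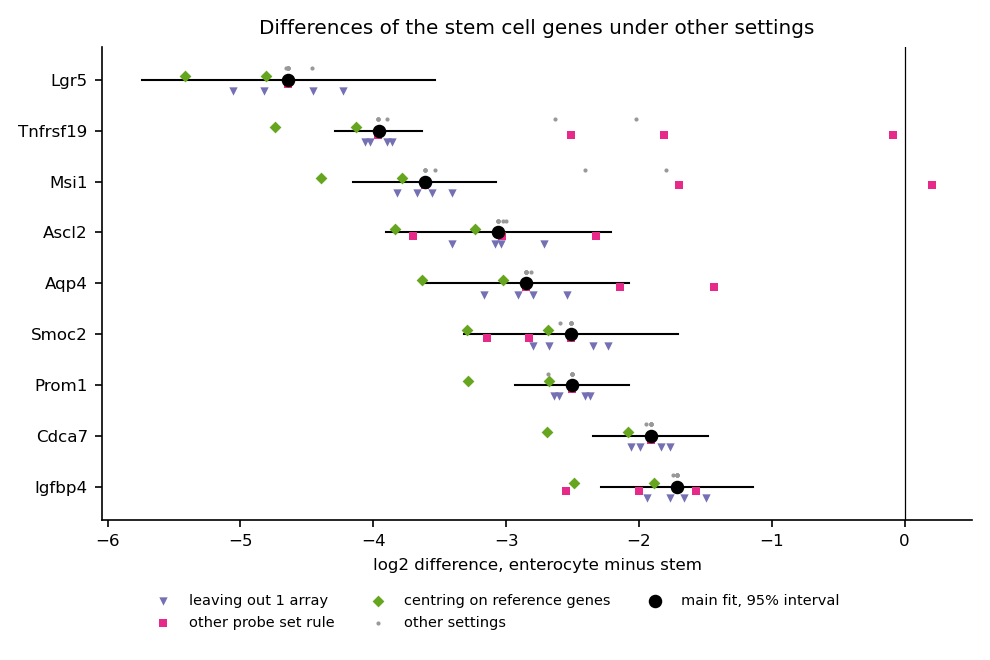
Black points give the log2 difference, enterocyte minus stem, of each stem cell gene with its 95% interval, and coloured points the same difference under other settings. All points lie below 0 except that of the dimmest Msi1 probe set (0.21), and the widest spread is between the probe sets of Tnfrsf19 and Msi1.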

How the data were processed

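Total RNA (100 ng per sample) was labelled as biotinylated cRNA and hybridised to 4 arrays. The deposited values are linear, normalized intensity. The submitters' processing notes name RMA without a version. RMA itself returns log2 values, and which step made them linear, or scaled the arrays, is unknown here. The log2 of each value was taken, with no pseudocount.

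Of 22690 probe sets, 20380 that the platform annotation tied to 1 symbol were kept, and 691 were tied to several. The 64 control probe sets were left out, among them 13 with 1 symbol. Entrez identifiers matched RefSeq (GRCm38.p6, names only) for 20351, with 0 symbols changed. Each gene took its probe set with the highest mean. Groups were compared (enterocyte minus stem) in limma 3.58.1 (R 4.3.3; lmFit, then eBayes), with two-sided p-values adjusted by Benjamini-Hochberg over 12393 genes (or 20380 probe sets), threshold 0.05. Replicates had identical values in 1268 genes of the stem and 1048 of the enterocyte group, and in 0 of the 9 stem cell genes; such ties lower the estimated spread. The number of arrays limits the precision.

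The background level is the 90th percentile of the mean of 29 genes of other organs, 3 of which passed the test (Ttr, Mbp and Myl7). Where a group mean was below it, the fold, "at least", uses each dim array raised to it. The steps were tested on simulated data. The 9 genes are listed by name, with no threshold on values, but they, the other lists and the tests were chosen with earlier results of these data known. Named were all 9 genes with every probe set, Atoh1, all measured relatives, the 5 genes nearest to Lgr5 and up to 4 genes of each list with the largest difference past the threshold, of which a part is printed; others (Sp5, Cdk6, Mecom, Kcnq1, Ptpro, Rnf43, Hopx, Bmi1, Clu, Tert, collagens, S100b, Gfap) were chosen after their values were seen. Alternatives covered the replicate block, leaving out each array, probe set rules, dim values, normalization, centring, variance trend and array weights.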

Additional observations from a re-analysis of the deposited data

How the results depend on the processing

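All 9 differences stayed below 0 under every setting with all 9 measured except the dimmest probe set, and all 9 calls were kept except there and on leaving out an array. Leaving out 1 array gave 0 to 7 of 9 genes, 0 of 21 probe sets, a median between -2.91 and -2.715, 0 to 5 other crypt base genes, 0 to 3 relatives, and 0 to 1058 lower and 0 to 663 higher genes; at an unadjusted p under 0.05 by limma 4675 to 5274 genes remained. With the dimmest probe set 6 of 9 passed, Msi1 turned to 0.21 (adjusted p = 0.112), Tnfrsf19 was -0.09 (0.38) and Igfbp4 -1.57 (0.0552). The median of the 9 was -2.144 with the mean and -2.509 with the median over probe sets, -1.912 with the dimmest, -3.614 without sets ending in s, x or a (7 genes; 7 of 8 probe sets lower), -2.507 and -2.514 with values raised to the background and to the lower background level, -3.632 with reference gene centring and -3.025 with centring on their mean. Raising values to background left 1831 lower and 1472 higher genes. Reference gene centring gave 9567 lower and 1173 higher genes, and 18 relatives called. Centring on the reference mean, the lower background level and leaving out Lgr5 were chosen after seeing the data.

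Whether replicates with the same number belong together is not given. Across all genes, dim and tied ones included, same-numbered deviations correlated at r = 0.0504, which cannot decide it for the 9 genes. With the replicate block the SE fell for all of the 9 but Tnfrsf19. It went from 0.36 to 0.162 for Lgr5 and from 0.106 to 0.126 for Tnfrsf19. With the replicate block 9 of 9 genes were lower (adjusted p 0.0136 to 0.0167), with 2557 lower and 2010 higher genes in all. No depth is known for arrays, and values under the background level have no order.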
